A study of Mus musculus with 9 samples.

Results

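All liver RNA pools from mice on a high fat diet, with or without metformin, were taken as 1 group of 6 arrays and compared with the 3 arrays of chow-fed controls. These 9 arrays are the whole study. Members were chosen by label alone, so that no measured value decided which array entered which side. Every circular RNA (circRNA) probe of the array was carried along, 30534 in all, of which 25864 (84.7%) passed the filter on dim probes and 25779 could be tested.

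The animals were male C57BL/6J mice, an inbred strain, 20 weeks old when the liver was taken. Controls were fed chow for 17 weeks, and the labels list no gavage for them. The high fat diet group ate food with 45% of its calories as fat over the same 17 weeks and was given saline by gavage in the last 5 weeks. The metformin group had the same food, with metformin at 3 mg/kg per day by gavage in place of saline over those 5 weeks. Fat feeding and gavage therefore set the 6 arrays apart from the 3 controls together, and their effects cannot be told apart. Each array held RNA of 4 mice pooled, so that the spread given below is that between pools. Liver of 15 mg was extracted, and 5 µg of the RNA was treated with RNase R for 30 minutes before labelling.

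circRNAs are closed loops made when the splicing machinery joins the end of an exon to the start of the same or an earlier exon. Without free ends they resist exonucleases such as RNase R, which digests most linear RNA, and many persist in cells for longer than the messenger RNA of their host gene. A circle can shift in abundance because its host gene is transcribed differently, because more or less of the transcript is back-spliced, or because the circle is lost at another rate, and an array of this kind reads only the amount left. In liver, a diet rich in fat leads to fat storage in hepatocytes and to insulin resistance, and metformin is a glucose-lowering drug taken up by this organ. On this array each circRNA has 1 probe and a partner probe that bears the same name with the ending neg. The sources used here do not say what the partner binds, and it is reported beside its circle as a second reading. The probe names give a position, on the mm9 build, for 14043 circRNAs, and a number or code for the others. No host gene, exon or intron was assigned, and no probe sequence is shown, because the files used here hold neither.

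Levels are log2 intensities relative to the 75th percentile of the array, so that a value of 0 is a bright probe and most probes lie below it. The probes well above background made up 81.5% ± 2.36 (SD, n = 3) of all probes in controls and 77.9% ± 6.27 (SD, n = 6) in fat-fed pools. The difference of -3.57 percentage points gave p = 0.405 in a two-sided exact permutation test over 84 splits. The lowest shares were 69.4% in metformin replicate 3, the only array on the second slide, and 71.7% in high fat diet replicate 2. Median local background was 53 intensity units on both of these arrays and 29 to 46 on the other 7. The 3 controls and high fat diet replicate 1 lay in the first column of the first slide, and the other 4 arrays of that slide in the second column. Correlations between arrays over the tested circRNAs ran from 0.973 to 0.993.

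No single circRNA passed the test between fat-fed and control livers. Across 25779 circRNAs, limma called 0 at an adjusted p under 0.05 (0%), and the smallest adjusted p was 0.0842. Only 3 circRNAs had an adjusted p under 0.1, and 22 had one under 0.2. An unadjusted p under 0.05 was found for 1785 circRNAs (6.92%), where 5% of those tested would be 1289. Of these, 1113 (4.32%) had lower values in fat-fed pools and 672 (2.61%) had higher values. The excess over 5% was not kept under every setting. Without control replicate 1 the count was 1209 of 25727, under 5% of those tested, with 663 lower and 546 higher. With the authors' deposited values it was 1170 of 23114, close to 5%, and the split turned, to 515 lower and 655 higher. The counts also differed with detection, but this split is not independent of the filter. A circRNA that was dim on some array passed only through a group in which it was well above background on every array. The part of the filter in the split was not tested. The 2934 circRNAs not well above background on at least 1 array had 320 lower (10.9%) and 45 higher (1.53%). The 22845 well above background on all 9 arrays had 793 (3.47%) and 627 (2.7%). Of the 24546 circRNAs with a value on every array, 560 (2.28%) had all 6 fat-fed values below all 3 control values, and 340 (1.39%) had all 6 above. The median difference over all tested circRNAs was -0.02 on the log2 scale, and 62 circRNAs (0.241%) differed by 1 or more in either direction. The circles described next are those with the smallest p on each side, 12 lower and 12 higher. They were picked for their separation, so that their values are a description of where the data lie farthest apart.

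**Figure D1:**
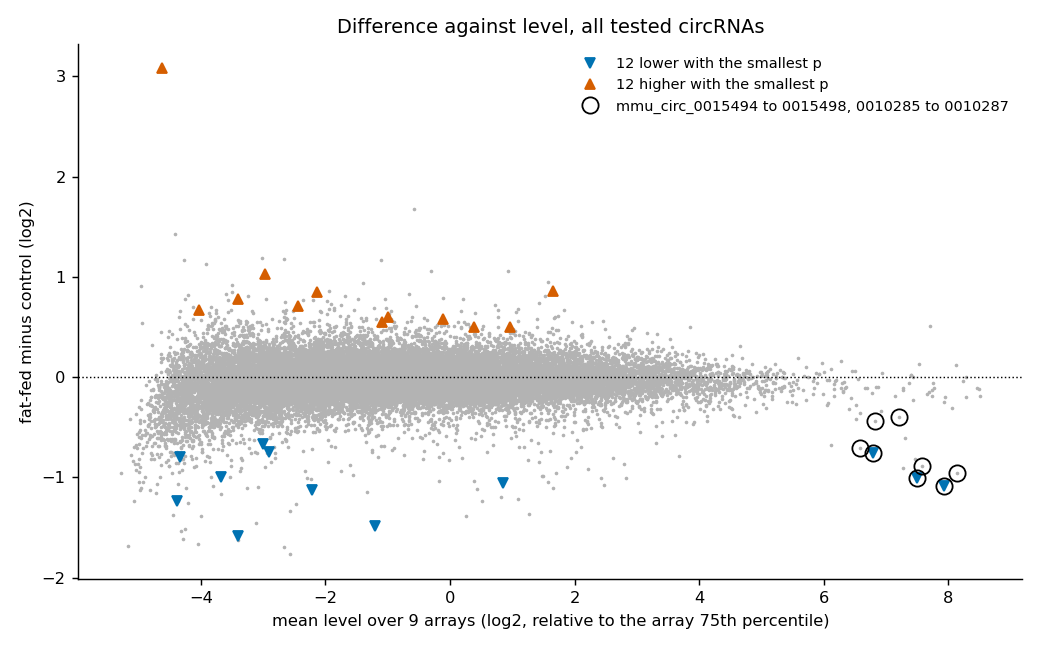
Difference between the 6 fat-fed and the 3 control arrays (vertical axis, log2) against the mean level over 9 arrays (horizontal axis, log2 relative to the array 75th percentile), 1 point per tested circRNA. Triangles mark the 12 lower and 12 higher circRNAs with the smallest p, and open circles mark the 8 bright circRNAs of neighbouring number, which lie between -1.08 and -0.40 at levels of 6.58 to 8.13.

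The circle with the smallest p was mmu_circ_0001100, and it was lower in every fat-fed pool. Its control values were -0.22, -0.57 and 0.15. On the high fat diet it read -1.42, -1.92 and -1.74, and with metformin -1.41, -2.11 and -1.61. The highest fat-fed value thus lay well under the lowest control value, and both fat-fed groups covered the same range. The difference was -1.49 ± 0.186 (SE), a 2.81-fold lower level, with an adjusted p of 0.0842. Against control, high fat diet alone gave -1.48 and metformin alone -1.50. Over 21 other ways of processing the data, the adjusted p of this circle ran from 0.00312 to 0.437, and 7 of them called it.

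The partner probe of mmu_circ_0001100 differed about as much, by -1.50 ± 0.232. The log2 ratio of circle to partner hence differed by 0.01 between fat-fed and control pools. The partner was the dimmer of the pair on each array, at a mean level of -3.69.

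The lower circle with the largest difference among the 12 was mmu_circ_0008401. Controls read -2.39, -2.45 and -2.19, high fat diet pools -3.50, -4.03 and -3.79, and metformin pools -3.78, -3.63 and -4.86. No values overlapped, and metformin replicate 3 lay lowest. It was well above background on all 3 control arrays but on only 2 of 3 arrays in each fat-fed group. It hence passed the filter only through the controls, where it is high. The filter was not redone when an array was left out, so that its calls are no support for the difference. The measured difference was -1.59 ± 0.241 (SE), with an adjusted p of 0.144, and it was -0.78 with normexp background correction. Without metformin replicate 3 it was -1.40 with an adjusted p of 0.00842, the only circRNA called (0.00388%) when 1 array at a time was left out; its adjusted p ran from 0.00312 to 0.689 over 20 alternatives.

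Fan_16_148_1250 was a dim circle at the edge of detection. It was well above background on 3 of 3 control arrays, at -3.31, -3.72 and -3.62, but on only 1 of the 6 fat-fed arrays. It thus passed the filter only through the controls. Its fat-fed values lay between -5.12 and -4.31 with a median of -4.78, all below the controls. The measured difference was -1.23 ± 0.172 (SE), with an adjusted p of 0.0890, against arrays on which it was mostly undetected. It came down to -0.48 with normexp and quantile normalization, and the adjusted p ran from 0.0353 to 0.933. A second circle of the same naming series, Fan_16_148_1788, was brighter and detected on all arrays. It read -1.70, -1.32 and -1.37 in controls and -3.04 to -2.08 (median -2.54) in fat-fed pools, a difference of -1.13 ± 0.198 (SE), with its partner at -1.06.

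On chromosome 13, the circle at chr13:62270802-62275617 was 2.07-fold lower in fat-fed pools. Controls stood at 1.82, 1.33 and 1.49. High fat diet pools stood at 0.59, 0.58 and 0.04, and metformin pools at 0.81, 0.54 and 0.42. The groups did not overlap, and the lowest of the 9 values was high fat diet replicate 3. The difference was -1.05 ± 0.164 (SE) with an adjusted p of 0.144, and the partner differed by -1.25 ± 0.245. The authors' deposited values turn this direction, as given in the closing section.

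The other 4 circles of the 12 were dim, with mean levels below 0, and differed by less than 1 on the log2 scale. These were mmu_circ_0010556 at -0.67 ± 0.107, mmu_circ_0010350 at -0.75 ± 0.129, mmu_circ_0015293 at -0.99 ± 0.167 and the chromosome 9 circle chr9:94490407-94493443 at -0.80 ± 0.146 (all SE). The tightest of them was mmu_circ_0010556, whose controls read -2.45, -2.50 and -2.73 and whose fat-fed pools lay between -3.39 and -3.13. For mmu_circ_0015293 the partner was brighter than the circle on all 9 arrays, so that this probe reads less than its paired signal throughout. It was well above background on 4 of the 6 fat-fed arrays and the chromosome 9 circle on 3 of 6. Both passed the filter only through the controls, and other settings brought their differences to as little as -0.53 and -0.30. The values of mmu_circ_0015293 were -3.15 to -2.92 in controls and -4.32 to -3.58 in fat-fed pools.

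Among the brightest circRNAs of the liver, 8 with neighbouring numbers had lower values in fat-fed pools. They fall into a run of 5, mmu_circ_0015494 to mmu_circ_0015498, and a run of 3, mmu_circ_0010285 to mmu_circ_0010287. Of these, mmu_circ_0015494, mmu_circ_0015496 and mmu_circ_0010285 are among the 12, and mmu_circ_0015495 and mmu_circ_0010286 are among the 3 brightest circRNAs with an unadjusted p under 0.001. The remaining 3 were looked at after these values had been seen, because of their numbers. Numbers after mmu_circ_0015498 were not followed, so that the first run ends there by choice. Among the brightest 1% of tested circRNAs, mmu_circ_0015502, mmu_circ_0015503, mmu_circ_0015506 and mmu_circ_0015510 also had lower values, by -0.33, -0.36, -0.61 and -0.28. Whether neighbouring numbers share a host gene or sequence is not given in the files used here, and probes that share sequence would not be independent readings.

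The brightest was mmu_circ_0015495, the circRNA with the seventh highest mean level of all those tested. Controls read 8.76, 8.76 and 8.79, within 0.018 (SD) of each other. High fat diet pools read 7.68, 8.0 and 8.37, and metformin pools 7.21, 7.54 and 8.09. The fat-fed values spread far more widely than the controls but lay wholly below them. The difference was -0.96 ± 0.210 (SE), with an adjusted p of 0.326.

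Next to it, mmu_circ_0015494 read 8.69, 8.71 and 8.58 in controls, 7.29, 7.92 and 7.93 on the high fat diet and 7.22, 7.35 and 7.75 with metformin. It differed by -1.08 ± 0.174 (SE), 2.12-fold lower, with an adjusted p of 0.144 and a range of 0.0130 to 0.933 over 21 alternatives. mmu_circ_0015496 read 8.55, 8.09 and 7.87 in controls and between 6.87 and 7.52 in fat-fed pools, with a difference of -1.0 ± 0.171 (SE). Smaller differences were measured for the last numbers taken. There, mmu_circ_0015497 differed by -0.44 ± 0.124 and mmu_circ_0015498, which has no value on high fat diet replicate 1, by -0.40 ± 0.151. By contrast, mmu_circ_0015493, just before the run, was a dim circle at -2.80 to -2.65 in controls and -3.10 to -2.33 in fat-fed pools, which overlapped.

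In the run of 3, mmu_circ_0010285 read 7.36, 7.30 and 7.25 in controls and 6.35 to 6.91 (median 6.44) in fat-fed pools, a difference of -0.76 ± 0.136 (SE). mmu_circ_0010286 read 8.45, 7.99 and 8.10 against 7.01 to 7.79, a difference of -0.89 ± 0.176. mmu_circ_0010287 read 7.26, 6.84 and 7.04 against 6.09 to 6.52, a difference of -0.71 ± 0.132. All 3 were separated, and their adjusted p-values were 0.179, 0.234 and 0.199. On either side, mmu_circ_0010284 and mmu_circ_0010288 overlapped between groups, with differences of 0.11 ± 0.222 and -0.02 ± 0.107. The number after these, mmu_circ_0010289, was undetected on all 9 arrays and was not tested.

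All 8 partners of these bright circles had lower values in fat-fed pools as well. Ratios of circle to partner differed by -0.33 to 0.05, with the smallest unadjusted p, 0.0428, in mmu_circ_0015496. The 8 circles had lower values under each of the 21 other settings tried, but not of the same size. The smallest differences were -0.17 with normexp and quantile normalization, -0.19 with quantile normalization alone and -0.10, that of mmu_circ_0015498, with a covariate for the array column.

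**Figure D2:**
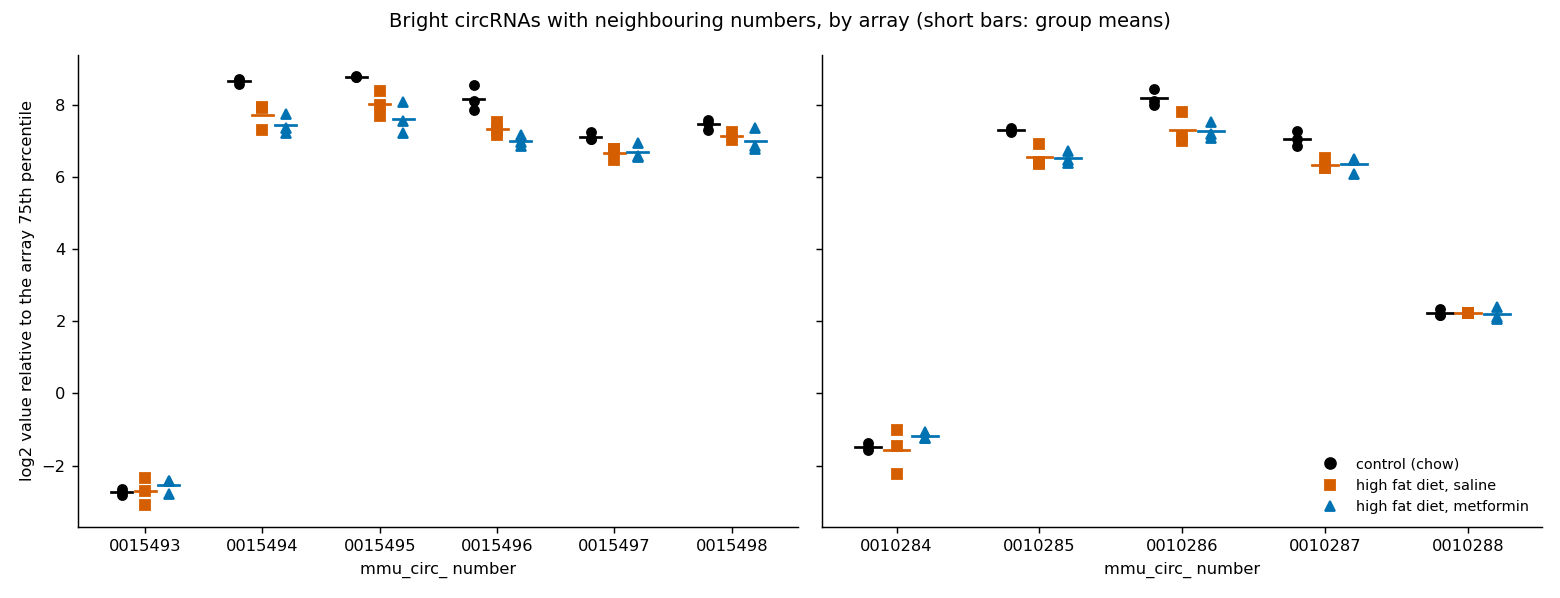
Log2 level relative to the array 75th percentile (vertical axis) of circRNAs with neighbouring numbers (horizontal axis), 1 marker per array and a short bar for each group mean. In the runs mmu_circ_0015494 to mmu_circ_0015498 and mmu_circ_0010285 to mmu_circ_0010287 the fat-fed means lie below the control mean, and in the neighbours mmu_circ_0015493, mmu_circ_0010284 and mmu_circ_0010288 the groups overlap.

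On the higher side, the circle with the smallest p was chr2:28396231-28406083. Controls read -3.85, -4.08 and -3.82. High fat diet pools read -3.18, -3.24 and -3.10, and metformin pools -3.12, -3.19 and -3.01. The 6 fat-fed values lay within 0.0811 (SD) of each other and above every control. The difference was 0.77 ± 0.105 (SE), 1.71-fold higher, with an adjusted p of 0.0890 and 4 of 21 alternatives called it. Among them, the authors' deposited values gave a difference of 8.16. The alternatives on scanner values gave differences from 0.40 to 0.82 and adjusted p-values from 0.0192 to 0.429, with 3 calls. Its partner did not share this, at -0.17 ± 0.20, and the ratio of circle to partner was higher by 0.95 ± 0.174 (SE).

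A larger but less even difference was measured for the circle at chr13:58939157-58962916. The 3 control arrays read -6.79, -7.09 and -6.16, none of them well above background. The circle was well above background on 3 of 3 high fat diet arrays, at -2.18, -3.38 and -4.06, and on 2 of 3 metformin arrays, whose values were -4.41, -4.99 and -2.58. Against the detection limit this is at least 2.63-fold higher; the measured means were -6.68 in controls and -3.60 in fat-fed pools, with an adjusted p of 0.160. The partner was brighter than the circle on 8 of the 9 arrays and had a difference of 0.82 ± 0.283. Measured against these undetected controls, the difference ran from 0.94 to 4.30 over 20 alternatives and the adjusted p from 0.00571 to 0.933. The array column as covariate gave both the highest difference and the only call. The circle passed the filter only through the high fat diet group, where it is high, so that this call is no support for the difference.

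The 3 higher circles with mean levels above 0 differed by less than 1 on the log2 scale. mmu_circ_0002709 read 1.13, 1.30 and 0.81 in controls, 2.15, 1.89 and 2.00 on the high fat diet and 1.54, 1.66 and 2.42 with metformin. It was higher by 0.86 ± 0.185 (SE), while its partner differed by 0.06 ± 0.128. mmu_circ_0003105 read 0.67, 0.71 and 0.52 against 1.01 to 1.24, higher by 0.50 ± 0.104. mmu_circ_0013961 read 0.05, 0.12 and -0.03 against 0.43 to 0.74, also higher by 0.50 ± 0.104. Control and fat-fed values did not overlap in any of these 3, and their adjusted p-values lay between 0.321 and 0.326.

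In another 3 higher circles the control values lay close together. mmu_circ_0014383 read -2.93, -2.90 and -2.92 in controls and -2.41 to -1.95 in fat-fed pools, a difference of 0.70 ± 0.127 (SE). mmu_circ_0002255 read -1.42, -1.40 and -1.34 against -1.0 to -0.69, a difference of 0.59 ± 0.103, with metformin replicate 3 nearest to the controls; the authors' deposited values turn its direction, to -1.59. The chromosome 14 circle chr14:32427390-32436160 read -0.46, -0.48 and -0.54 against -0.16 to 0.25, a difference of 0.57 ± 0.110. The 3 tested circles that overlap the span of this one also had higher values, by 0.25 to 0.67.

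Another 4 dimmer circles completed the higher side. The chromosome 3 circle chr3:88811064-88827132 was higher by 1.03 ± 0.198 (SE), with control values of -3.20, -4.08 and -3.67 and fat-fed values of -2.94 to -2.32. Of the 3 tested circles that overlap it, only 1 had a higher value, and their differences ran from -0.11 to 0.19. A second chromosome 3 circle, chr3:108439909-108441675, was higher by 0.55 ± 0.116, and the chromosome 7 circle chr7:55979750-55982192 by 0.85 ± 0.155. The last, mmu_circ_0003546, was higher by 0.67 ± 0.121. The partners of mmu_circ_0003546 and of the first chromosome 3 circle were brighter than the circle on all 9 arrays and differed by 0.00 and 0.10.

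**Figure D3:**
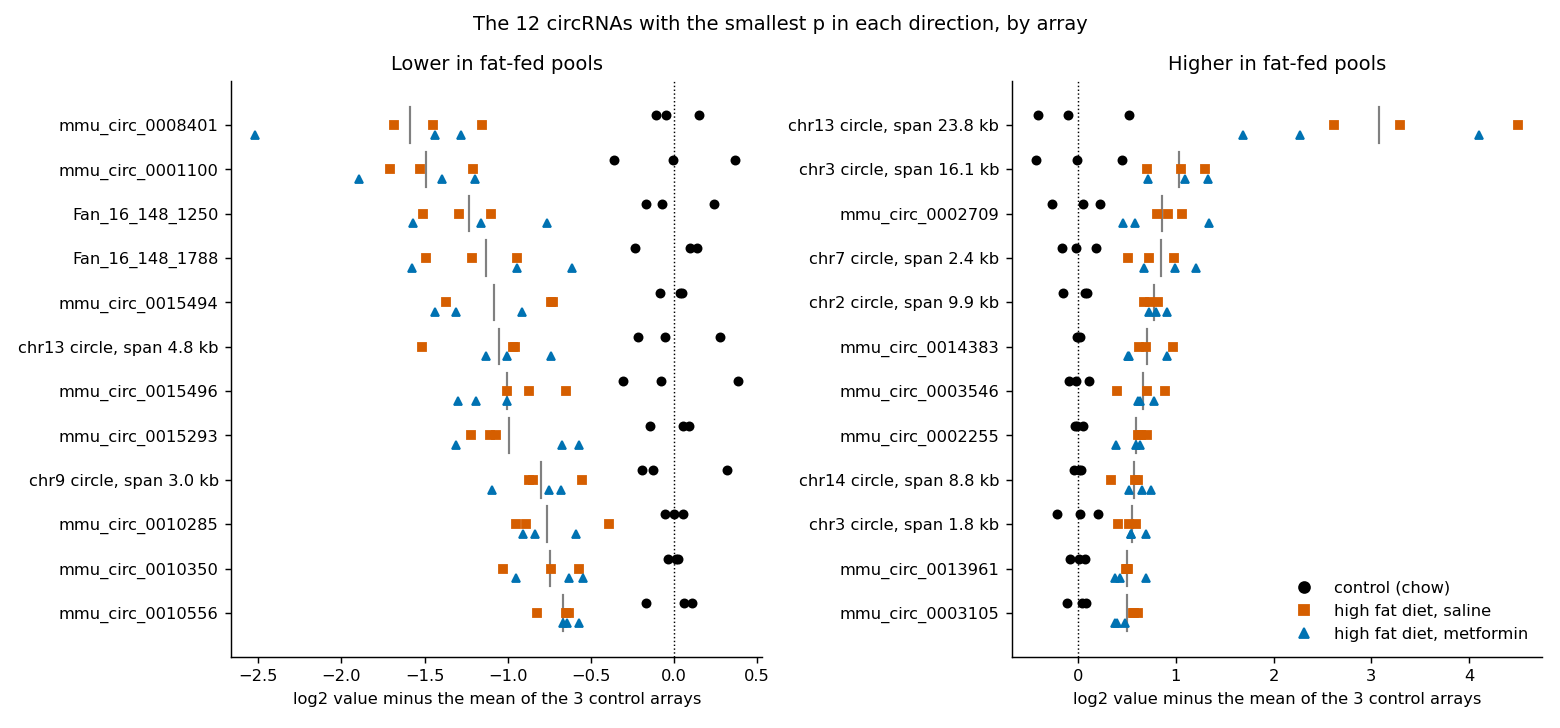
Log2 value of each array minus the mean of the 3 control arrays (horizontal axis) for the 12 lower and the 12 higher circRNAs with the smallest p (vertical axis), 1 marker per array; grey bars are the fat-fed minus control differences. In all 24, the 6 fat-fed markers lie on one side of the 3 control markers; the widest spread is that of the chromosome 13 circle of the longer span.

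In these 24 circles both fat-fed groups differed from control in the same direction, with the drug and without it. High fat diet pools differed from control by -1.48 to -0.70 in the 12 lower and by 0.50 to 3.47 in the 12 higher circles. Metformin pools differed by -1.75 to -0.63 and by 0.42 to 2.69. The 2 comparisons share the control arrays, and the circles were picked on their mean, so that like values are built in. The high fat diet difference was the larger in 12 circles and the metformin difference in the other 12. Set directly against each other, metformin minus high fat diet ran from -0.79 to 0.28 with standard errors of 0.117 to 0.575, and 0 of the 24 reached an unadjusted p under 0.05 (smallest adjusted p 0.974, limma). At standard errors of this size, a p that misses the threshold does not show that the fat-fed groups had equal levels.

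mmu_circ_0015831, which an earlier analysis of these data had named, was higher mainly without the drug. It read -2.79, -2.87 and -2.49 in controls, -1.60, -1.40 and -1.52 on the high fat diet and -2.42, -2.37 and -2.38 with metformin. All fat-fed values were above all controls, but the metformin values lay just above the highest control. As 1 group, the 6 fat-fed arrays differed by 0.77 ± 0.245 (SE), with an adjusted p of 0.504. High fat diet alone differed by 1.21 ± 0.134 with an adjusted p of 0.0397 and metformin alone by 0.33 ± 0.134. Metformin minus high fat diet was -0.89 ± 0.134, with an adjusted p of 0.228.

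mmu_circ_0007806, also named earlier, was a bright circle with lower values in both groups. It read 3.39, 3.01 and 2.86 in controls and 2.01, 1.89 and 1.86 on the high fat diet, and its single usable metformin value, that of replicate 3, was 2.28. The other 2 metformin spots were marked as outliers by the scanner software and left out, so that the circle falls outside the 12. The difference was -1.08 ± 0.162 (SE), with an adjusted p of 0.158, and 3 alternatives called it.

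Circle and partner probes mostly differed in the same direction. Of 21994 partner probes, limma called 0 (0%; smallest adjusted p 0.129), and 1664 (7.57%) had an unadjusted p under 0.05, nearly evenly split into 854 lower and 810 higher. For the log2 ratio of circle to partner, 0 of 21201 pairs were called (0%; smallest adjusted p 0.322), and 1425 (6.72%) had an unadjusted p under 0.05. Differences had the same sign in 70.1% of 21227 pairs, and in 89.9% of the 1391 pairs whose circle had an unadjusted p under 0.05. In 23.4% of those 1391, the partner differed by at least as much as the circle.

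Of the 24 circles named above, 20 had a tested partner, and in 19 the partner had the same sign. The exception was the chromosome 2 circle. The ratio had an unadjusted p under 0.05 (limma) for 2 of the 8 lower circles with a tested partner and for 6 of the 12 higher circles. The adjusted p passed for 0 of these 20. The largest ratio differences among the higher circles, beside the undetected-in-control circle of chromosome 13, were those of the chromosome 2 circle, mmu_circ_0002709, mmu_circ_0003546 and the first chromosome 3 circle, with ratio differences of 0.95, 0.80, 0.66 and 0.93.

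**Figure D4:**
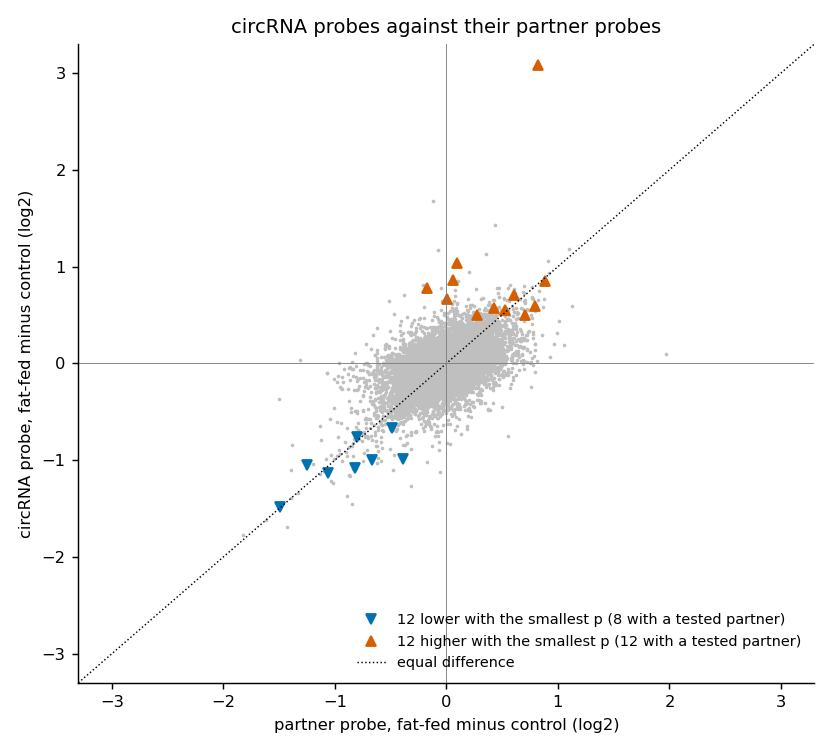
Difference between fat-fed and control arrays of the circRNA probe (vertical axis, log2) against that of its partner probe (horizontal axis, log2), 1 point per pair; triangles mark the 8 lower and 12 higher named circRNAs with a tested partner, and the dotted line marks equal differences. Of the lower circles, mmu_circ_0015293 (-0.99 against -0.39) lies farthest from the line and the others differ from their partner by -0.33 to 0.20, and 4 of the higher ones lie near a partner difference of 0.

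Where an array lay on its slide moved with the groups, since no control lay in the second column. The first column of the first slide held only 1 fat-fed array beside the 3 controls, and the 24 circles were picked for full separation, so that their sign there is fixed by that choice and is not counted. With the column as a covariate, limma called 2 circRNAs (0.00776%), the chromosome 13 circle undetected in controls and mmu_circ_0002724, the latter at -2.68. The covariate took the column alone, so that metformin replicate 3, in the first column of the second slide, counted with the controls' column. High fat diet replicate 1 and metformin replicate 3 were the highest arrays of that chromosome 13 circle, at -2.18 and -2.58. For mmu_circ_0001100 the difference was -1.21 within the first column of the first slide. That value rests on 1 fat-fed array, so that it has no spread and cannot measure the part of the column. With the covariate the difference of this circle was -1.30, at an adjusted p of 0.437 (limma).

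Circles whose spans overlap were grouped as loci, of which 981 held 3 or more tested circRNAs with a value on every array. limma called 0 of them on the mean of their circles (0%; smallest adjusted p 0.166), and 84 (8.56%) had an unadjusted p under 0.05, of which 55 (5.61%) were lower and 29 (2.96%) higher. Without control replicate 1, 45 of the 981 loci had an unadjusted p under 0.05 (limma), where 5% would be 49. All 6 fat-fed values lay below all controls in 29 loci (2.96%) and above them in 18 (1.83%). Circles of a locus can share exons, so that they are not independent readings. The minimum of 3 circRNAs was known from an earlier analysis of these data and is not independent of it.

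The lowest p belonged to the locus chr19:43579012-43590352, with 3 circles that an earlier analysis of these data had named. Its mean was 2.01, 2.02 and 1.92 in controls, 1.11, 1.06 and 0.84 on the high fat diet and 1.72, 1.33 and 1.11 with metformin. Fat-fed values lay below the controls throughout, with metformin replicate 1 nearest to them. The difference was -0.79 ± 0.149 (SE), 1.73-fold lower, with an adjusted p of 0.166. It was -0.98 with an adjusted p of 0.0151 for the high fat diet alone and -0.60 with an adjusted p of 0.677 for metformin alone, and metformin minus high fat diet was 0.39 ± 0.138 with an adjusted p of 0.823. Without metformin replicate 1, the 6 against 3 comparison called this locus, at an adjusted p of 0.00205, and that on chromosome 6 below, at 0.0304, the only 2 of 981 called (0.204%). The 3-group fit called it alone, at 0.0305 (0.102%), and over 22 alternatives its adjusted p ran from 0.00205 to 0.884.

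All 3 circles of the chromosome 19 locus had lower values in every fat-fed pool. The shortest, chr19:43579012-43579416, read 1.07, 1.1 and 1.05 in controls and -0.45 to 0.78 in fat-fed pools, a difference of -1.03 ± 0.216 (SE). Its partner was brighter on all 9 arrays. The brightest, chr19:43579012-43582483, read 3.82, 3.82 and 3.73 against 2.90 to 3.55, a difference of -0.58 ± 0.150. The longest, chr19:43581812-43590352, read 1.15, 1.15 and 0.98 against -0.10 to 0.82, a difference of -0.75 ± 0.168. Their partners differed by -0.62, -0.55 and -0.71.

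The locus chr6:116223591-116238186 held 4 circles, all lower, by -0.64 to -0.42. Its mean was -1.62, -1.71 and -1.81 in controls, -2.26, -2.58 and -2.36 on the high fat diet and -1.79, -2.20 and -2.22 with metformin. Of the 6 fat-fed pools, 5 lay below the lowest control, and metformin replicate 1 lay among the controls. The difference was -0.52 ± 0.134 (SE), with an adjusted p of 0.234. The 3 tested partners differed by -0.12, -0.38 and -0.09, less than their circles.

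On chromosome 9, the locus chr9:58803766-58838315 held 7 circles, all with lower values, by -0.63 to -0.20. Its mean was 0.34, 0.36 and 0.04 in controls and -0.37 to 0.01 in fat-fed pools, so that the groups were separated only narrowly. It differed by -0.41 ± 0.106 (SE), with an adjusted p of 0.234. Only 1 of the 7 circles, chr9:58833408-58838315, was separated on its own. The remaining lower locus, chr16:15831364-15839317, held 3 circles and differed by -0.30 ± 0.0751, from -2.64, -2.52 and -2.61 in controls to between -3.02 and -2.80 in fat-fed pools. Of its circles, only that of the full span was separated, at -0.43 ± 0.163 (SE). This circle was well above background on all 3 control arrays but on only 2 of 6 fat-fed arrays. It passed the filter only through the controls. The others overlapped between groups, with differences of -0.21 and -0.26. Partners in this locus differed by 0.05 on average.

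Higher loci were led by chr1:11171936-11198736, with 3 circles. Its mean was -3.36, -3.20 and -2.85 in controls, -2.42, -2.22 and -2.57 on the high fat diet and -2.69, -2.52 and -2.82 with metformin. The groups did not overlap, but metformin replicate 3 and control replicate 3 were close. The difference was 0.60 ± 0.133 (SE), with an adjusted p of 0.234. Its circles differed by 0.55, 0.57 and 0.67, and only 1 of them was well above background on all 9 arrays.

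The other higher loci had the same adjusted p of 0.234. A second on chromosome 1, chr1:178961781-178997464, was higher by 0.40 ± 0.0984 (SE), from -1.70, -1.63 and -1.57 to between -1.44 and -1.08. The locus chr18:73935033-73964823 was higher by 0.36 ± 0.0896, from -1.44, -1.39 and -1.34 to between -1.20 and -0.79. Both were separated, although none of the 3 circles of the second chromosome 1 locus was separated singly.

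The locus chr17:57541328-57559947 held 5 tested circles, all higher, by 0.43 to 0.80. Its mean was -0.95, -1.05 and -0.36 in controls, -0.08, -0.13 and 0.06 on the high fat diet and -0.40, -0.38 and -0.32 with metformin. Control replicate 3 lay with the metformin pools, and 4 of the 6 fat-fed values were above all controls. The difference was 0.58 ± 0.148 (SE). Within it, the partner of chr17:57546257-57559947 differed by 1.12 ± 0.177, more than the 0.59 ± 0.142 of its circle.

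**Figure D5:**
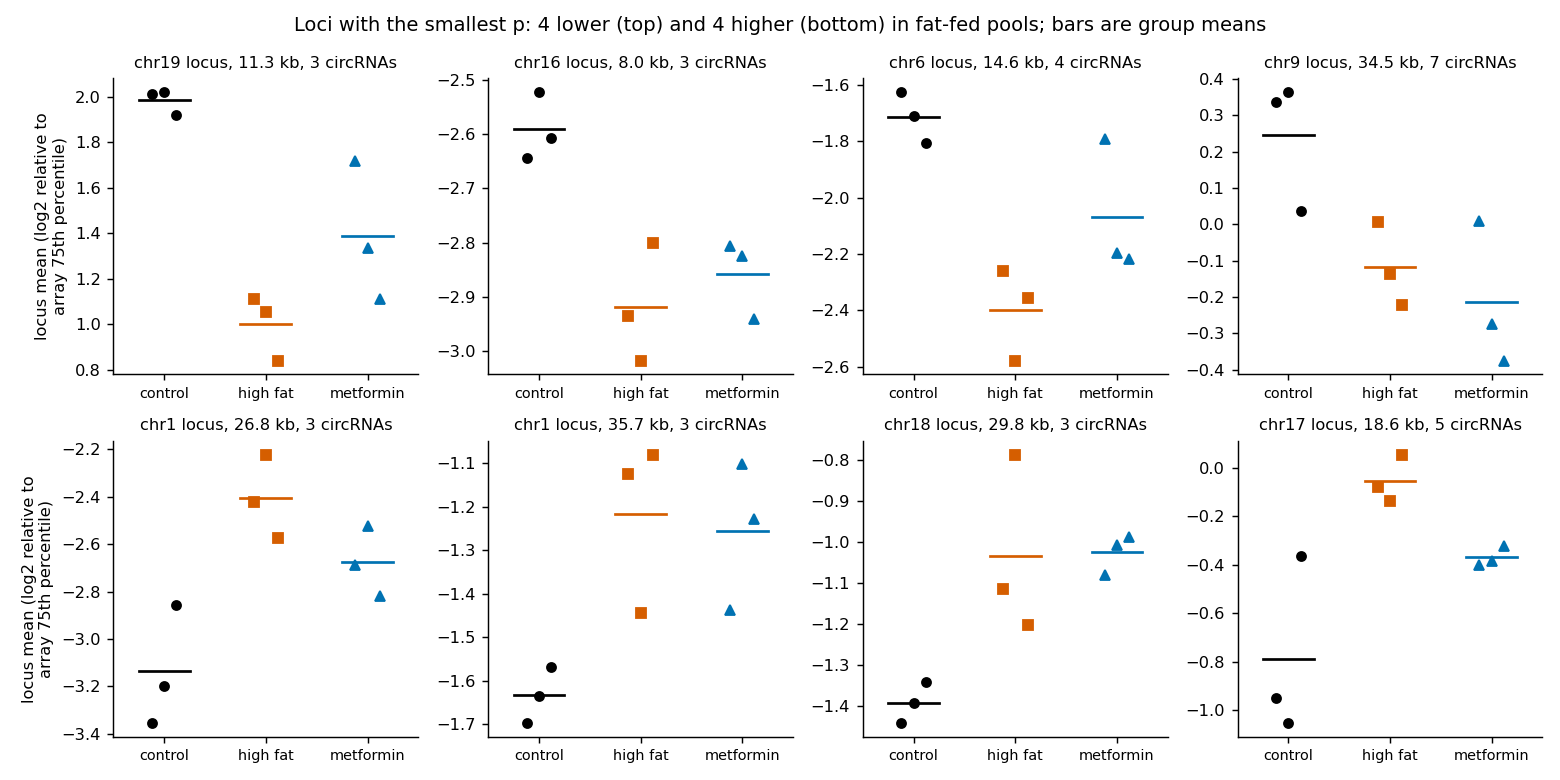
Locus mean (vertical axis, log2 relative to the array 75th percentile) for each array in the 4 lower (top) and 4 higher (bottom) loci with the smallest p, by group (horizontal axis); bars are group means, and each panel has its own vertical scale. In 6 of the 8 loci the fat-fed values do not overlap the controls; the chromosome 6 and chromosome 17 loci overlap.

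Lower differences were spread unevenly over brightness. Over all tested circRNAs, 4.32% were lower and 2.61% higher at an unadjusted p under 0.05 (limma). In the dimmest 25% of tested circRNAs, 494 (7.67%) had lower and 169 (2.62%) higher values at an unadjusted p under 0.05, with a median difference of -0.07. The next 25% had 236 lower (3.66%) and 205 higher (3.18%), and the 25% above that 181 (2.81%) and 164 (2.5%). The brightest 25% without the top 1% had 179 lower (2.89%) and 134 higher (2.17%). With normexp background correction the dimmest 25% had 198 lower and 117 higher, and without control replicate 1 it had 264 and 172. A dim circle passes the filter through the group where it is bright, and the part of background and of this filter in the excess of lower values was not tested.

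At the other end, the brightest 1% (258 circRNAs) had 23 lower (8.91%) and 0 higher at an unadjusted p under 0.05, and 71.3% had a difference below 0. Over all tested circRNAs these shares were 4.32%, 2.61% and 56.1%. All 6 fat-fed values lay below all controls in 15 of the 213 with a value on every array, and above them in 0. Over all circRNAs with a value on every array the shares were 2.28% and 1.39%. Of the 15, 7 are numbered neighbours described above, which may not be independent readings. Without control replicate 2 the class had 12 lower and 1 higher, and without control replicate 1 it had 15 and 0. The median shift of this class against the control mean was -0.08 to -0.22 in 5 fat-fed pools but 0.10 in metformin replicate 3, and it was -0.06 to 0.08 among the controls. The direction of the whole class depended on scaling: the median was -0.06 as measured but 0.02 after quantile normalization, with 13 lower and 6 higher, and 0.02 once the array column was a covariate, with 11 lower and 5 higher.

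The 8 numbered neighbours made up part of the 23. Of the others, the largest differences were those of mmu_circ_0016042 at -0.90 ± 0.220 (SE), mmu_circ_0015544 at -0.82 ± 0.221, mmu_circ_0016041 at -0.67 ± 0.177 and mmu_circ_0015506 at -0.61 ± 0.173. Their adjusted p-values lay between 0.353 and 0.430. Among these, only mmu_circ_0016041 had all its fat-fed values below the controls, and its partner differed the other way, by 0.18. It was the exception among the 23, since the other 22 had a partner with lower values.

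Over all tested circRNAs, 4.32% were lower and 2.61% higher at an unadjusted p under 0.05 (limma). By span, circles spanning under 1 kb had 54 lower (4.69%) and 33 higher (2.87%) of 1151 at this threshold. Those of 10 to 50 kb had 206 (4.26%) and 151 (3.12%) of 4840. By kind of name, the mmu-circRNA probes had 26 lower (5.84%) and 8 higher (1.80%) of 445, and the position-named probes 500 (4.29%) and 348 (2.99%) of 11646. By chromosome, chromosome 16 had the largest share of lower circles, 36 of 484 (7.44%), with 12 higher (2.48%). It is the extreme of all the chromosomes, overlapping circles are not independent readings, and none of these counts was tested. Higher circles outnumbered lower ones by a few on chromosomes 3 (21 against 18), 10 (20 against 16) and X (13 against 10), and chromosome 1 had 29 of each. Median differences by chromosome lay between -0.03 and 0.05, the last from the 15 circles of chromosome Y, none of which had an unadjusted p under 0.05.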

How the data were processed

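Spots were read with Agilent Feature Extraction 11.5.1.1 per the file headers (10.7 per the submitters' processing notes); the deposited processed intensity is background-subtracted and detrended per array and not scaled between arrays. The authors also deposited log2 values per circRNA, with a median of 6.51 and a lowest value of -3.32 on every array; the sources used here do not say how they were centred and floored.

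From log2 processed intensities the array's 75th percentile over all probes was subtracted. Outlier spots were left out and spots of a probe averaged. Tested probes were detected well above background on every array of 1 or more groups. With limma 3.58.1 (R 4.3.3; lmFit, then eBayes with 7 residual and 5.26 prior degrees of freedom), the 6 fat-fed arrays were set against the 3 control arrays, with Benjamini-Hochberg adjustment and a threshold of 0.05; the fit was tested on simulated data. Values of single fat-fed groups came from a 3-group fit. Loci used only circRNAs with a value on all 9 arrays. Folds against undetected probes are set against the lowest detected signal. No spot was saturated, and the number of arrays limits the precision.

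Named were the 12 lower and 12 higher circRNAs of smallest p with 9 values, the 3 brightest at p under 0.001, 4 loci a side, and circRNAs named by an earlier analysis. The comparison, lists and rules were chosen with earlier results of these data known. The labels name the pools of a group as separate samples, and p-values measure the spread between them. Positions are mm9 while the gene table at hand is of another build, so the host gene lists and cell type markers were not tested. Alternatives were other background corrections, scalings, filters, fits, the array column, the authors' values and each array left out.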

Additional observations from a re-analysis of the deposited data

Results flagged for a closer look

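mmu_circ_0002255 had 1 fat-fed value apart from the rest: metformin replicate 3 read -1.0, while the other 5 fat-fed arrays lay between -0.80 and -0.69. The gap took up 0.654 of the range of the 6 values, above Dixon's limit for 6 values. Of 40 features examined in this way, this was the only 1 marked, where chance marks about 1 in 20 groups.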

How the results depend on the processing

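The count of called circRNAs was 0 as reported, and also 0 with the 3-group fit, with the median of the circRNA probes as scale and with no filter. It was 8 with normexp and the 75th percentile, 4 with normexp and quantile normalization, 2 with quantile normalization alone, 6 with a trended and robust prior, 7 with array weights, 2 among circRNAs detected on all 9 arrays, 2 with a covariate for the array column and 13 of 23114 with the authors' deposited values. Over all alternatives, the replicate block and single arrays left out included, mmu_circ_0001100 was called in 7, mmu_circ_0008401 in 5 and the chromosome 2 circle in 4. Of these, mmu_circ_0008401 passed the filter only through the controls. Leaving out 1 array gave 0 to 1 calls, the 1 being without metformin replicate 3. At an unadjusted p under 0.05 the authors' deposited values gave 1170 circRNAs (515 lower, 655 higher) and 41 loci; a minimum of 2 circRNAs gave 163 loci, and leaving out 1 array gave 1209 to 2072 circRNAs and 45 to 94 loci, the 45 without control replicate 1. Called loci numbered 1 with the 3-group fit and 0 to 2 with 1 array left out. Loci of all tested circRNAs, an alternative chosen after seeing the data, gave 0 calls.

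Called partner probes numbered 2 with normexp and the 75th percentile, 1 with normexp and quantile, 2 with the trended prior, 1 with array weights, 1 among probes detected on all arrays and 0 to 1 with 1 array left out (without control replicate 2). The ratio gave 1 call with no filter. The share well above background differed by -4.75 to -1.86 points with 1 array left out.

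With the replicate number as a block, 2 circRNAs were called, both lower, and 0 loci. The labels do not say that a number pairs pools. Correlations of same-numbered arrays, which are not those of the levels (0.973 to 0.993 between arrays), ran from -0.14 to 0.19. By this measure 4 of 9 arrays correlated best with their own number, so the numbers were not taken to pair the samples.

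The authors' deposited values reversed the chromosome 13 circle chr13:62270802-62275617 to 4.89 and mmu_circ_0002255 to -1.59; the cause was not tested. They hold 6854 to 7850 circRNAs per array at their lowest value, and 3789 circRNAs at it on all 9 arrays were left out of that fit. Dim probes limit what can be seen: 2934 tested circRNAs were not detected on at least 1 array.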
